A study of Mus musculus with 16 samples.

Results

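The transcripts of 10 genes of TGF-beta signalling and cell adhesion were followed in donor T cells after haematopoietic stem cell transplantation: the ligand Tgfb1, the receptors Tgfbr1, Tgfbr2 and Tgfbr3, the signal transducers Smad2 and Smad3, the inhibitory Smad7, the corepressors Ski and Skil, and Cdh1, which encodes E-cadherin. They are 10 of 20972 genes named on the array, and were chosen by name after earlier results of these data, in which Skil and Cdh1 stood out between ovary and spleen. Each gene was read from its brightest probe on average over the 16 arrays, through the transcript accession printed for it. The series holds 6 groups of sorted cells from female mice of C57BL/6 background: ovarian CD8+ (4 arrays) and CD4+ T cells (2 arrays) after allogeneic transplantation, splenic CD8+ (3 arrays) and CD4+ T cells (2 arrays) after allogeneic transplantation, and splenic CD8+ (3 arrays) and CD4+ T cells (2 arrays) after syngeneic transplantation. The labels used here give no age, time after transplantation, host strain or conditioning, and do not tell if replicates are different animals, so p-values measure the spread between these arrays, which may be technical. Every donor cell here had passed through a transplantation and a double sort, also in the syngeneic groups. No ovarian cells after syngeneic transplantation were analysed here.

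TGF-beta1 is secreted in a latent form. Once active it binds the type II receptor, which recruits and activates the type I receptor. That kinase phosphorylates SMAD2 and SMAD3, which enter the nucleus with SMAD4. SMAD7 and the corepressors SKI and SKIL (also called SnoN) hold the response back, and betaglycan, the product of Tgfbr3, is a co-receptor that presents ligand. In T cells the pathway is known for restraining effector responses and for the upkeep of tissue-resident cells. E-cadherin joins epithelial cells to each other, and is bound on T cells by KLRG1 and by the integrin that contains CD103.

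All values below are levels on a log2 scale, the background-subtracted signal of a probe relative to the 75th percentile of its array, so a level of 0 is the brightness of that percentile. Levels of different probes are not compared. The 75th percentile itself lay between 67.6 and 450 arbitrary units, from 41.8% to 59.4% of probes on an array were well above background, and none of the spots was saturated. The lowest percentiles were those of ovarian CD4 replicate 2 and allogeneic splenic CD4 replicate 2. Differences are given with their standard error (SE) from limma, fitted to 22830 features with 1 mean per group, and a call means a p under 0.05 after Benjamini-Hochberg adjustment over all of these features. For a gene's other probe the SE comes from a limma fit to all 55681 probes, whose SEs are wider for the same probe. Among the 4 ovarian CD8 arrays replicate 3 stood apart, being the far one in 6 of the 7 genes for which an array lay far from the other 3. Without it no call of the 10 genes in a comparison with ovarian CD8 cells changed. All 10 genes passed the filter on dim probes, but 7 of them were well above background on every array. Cdh1 was so on 11 of 16 arrays, Ski on 13 and Tgfbr3 on 15. On a linear scale, in multiples of the percentile, 10 markers of T cells summed to between 763 and 1260 per array, with Cd8a well above background in no array of the CD4 groups.

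Sequences upstream of receptor genes are shown because the receptor transcripts Tgfbr1 and Tgfbr3 gave the most called differences among these genes. Tgfbr2 was not called in any comparison, and no window of Tgfbr3 was examined here. The 250 bases before the annotated starts of Tgfbr1 and Tgfbr2 were taken from RefSeq on the build GRCm38.p6, 5′ to 3′ on the strand of the gene, with matches to CAGAC or its reverse complement GTCTG, the letters of the SMAD-binding element, in capitals. The first window of Tgfbr1 is chr4:47352972-47353221 on the plus strand and the other is chr4:47385966-47386215 on the plus strand. The window of Tgfbr2 is chr9:116175364-116175613 on the minus strand.
Tgfbr1, upstream start: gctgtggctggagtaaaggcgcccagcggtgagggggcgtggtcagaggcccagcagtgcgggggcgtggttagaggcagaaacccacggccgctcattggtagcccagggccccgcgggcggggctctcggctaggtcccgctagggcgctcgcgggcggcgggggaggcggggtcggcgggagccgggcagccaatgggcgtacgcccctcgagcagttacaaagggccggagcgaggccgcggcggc
Tgfbr1, downstream start: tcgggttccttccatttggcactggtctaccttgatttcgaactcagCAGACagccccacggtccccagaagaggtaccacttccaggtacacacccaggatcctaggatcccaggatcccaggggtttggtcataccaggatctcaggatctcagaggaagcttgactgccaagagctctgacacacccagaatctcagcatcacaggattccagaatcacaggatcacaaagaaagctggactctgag
Tgfbr2: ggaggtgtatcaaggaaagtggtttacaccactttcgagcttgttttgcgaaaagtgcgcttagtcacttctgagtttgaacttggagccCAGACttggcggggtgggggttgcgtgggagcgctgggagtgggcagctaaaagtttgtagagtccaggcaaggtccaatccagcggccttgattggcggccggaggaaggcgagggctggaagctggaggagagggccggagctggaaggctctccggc
The upstream start of Tgfbr1, rich in G and C (74.8%), held no match, and the downstream start and Tgfbr2 held 1 match each. Of all 32851 windows of that length, 42.2% held at least 1 match, so these letters are common. The windows of Ski, Tgfb1 and Smad3 held no match, and none of the 6 windows held CAGGTG or its reverse complement CACCTG, an E-box of the kind bound by ZEB and SNAIL proteins, against 17.2% of all windows. A match describes the letters in these windows and says nothing about binding. No window of the other 5 genes was examined here, so nothing is said about their sequences.

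The ligand transcript Tgfb1 differed little between groups. Its level was 0.43, 0.40, 0.28 and 0.43 in ovarian CD8 arrays, against 0.40, 0.31 and -0.09 in allogeneic splenic CD8 arrays. It was 0.97 and 0.45 in ovarian CD4 arrays, against 0.32 and -0.10 in allogeneic splenic CD4 arrays. The CD8 ranges overlapped, and both ovarian CD4 arrays lay above both splenic ones. Neither difference was called by limma, at 0.18 ± 0.18 in CD8 (SE; adjusted p = 0.868) and 0.60 ± 0.23 in CD4 (SE; adjusted p = 0.237). In syngeneic spleen the levels were 0.10, -0.32 and 0.12 in CD8 arrays and 0.15 and 0.12 in CD4 arrays. The allogeneic minus syngeneic difference was 0.24 ± 0.19 in CD8 (SE; limma adjusted p = 0.333) and -0.02 ± 0.23 in CD4 (SE; limma adjusted p = 0.963). The probe of Tgfb1 is printed 10 times on each array, and the standard deviation between those spots had a median of 0.075 over arrays.

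**Figure D1:**
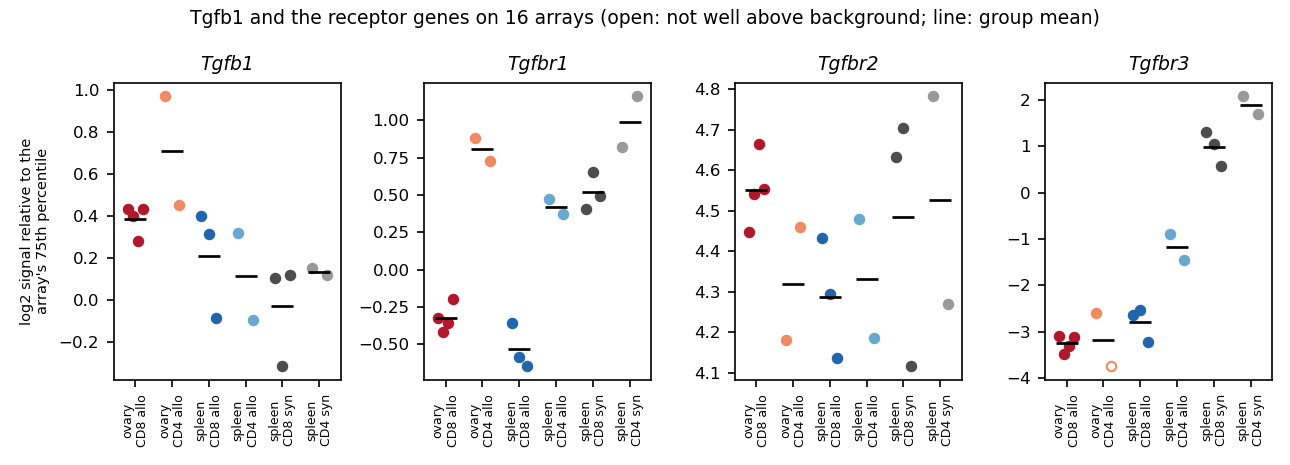
Levels of Tgfb1, Tgfbr1, Tgfbr2 and Tgfbr3 on each of 16 arrays (y axis, log2 signal relative to the array's 75th percentile; each panel has its own scale) in 6 groups (x axis), with open circles for spots not well above background and a line at the group mean. Tgfbr3 lies near -3 in ovary and above 0 in the syngeneic spleen groups, Tgfbr1 is lower in CD8 than in CD4 cells of ovary and of allogeneic spleen, and Tgfbr2 and Tgfb1 overlap across most groups.

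Tgfbr1, the type I receptor kinase that phosphorylates SMAD2 and SMAD3, was lower after allogeneic transplantation and lower in CD8 than in CD4 cells. Its level was -0.36, -0.58 and -0.65 in allogeneic splenic CD8 arrays, against 0.41, 0.65 and 0.50 in syngeneic splenic CD8 arrays. The ranges were apart, and the difference of -1.05 ± 0.14 (SE, n = 3 each; limma adjusted p = 7.52e-05) is a 2.07-fold lower signal. In CD4 cells the level was 0.47 and 0.37 in allogeneic spleen, against 0.82 and 1.16 in syngeneic spleen, a difference of -0.57 ± 0.17 (SE, n = 2 each; limma adjusted p = 0.0372). That CD4 call was lost without allogeneic replicate 1 (adjusted p = 0.0574), without allogeneic replicate 2 (0.0910) or without syngeneic replicate 2 (0.215), while the CD8 call held without any one array. On slide 1 alone the CD4 difference was -0.35.

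Tgfbr1 was lower in CD8 than in CD4 cells of ovary and of allogeneic spleen. In ovary Tgfbr1 stood at -0.32, -0.42, -0.36 and -0.20 in CD8 arrays, against 0.88 and 0.73 in CD4 arrays, a difference of -1.13 ± 0.14 (SE; limma adjusted p = 0.000376). In allogeneic spleen the CD8 minus CD4 difference was -0.95 ± 0.15 (SE; limma adjusted p = 0.00106), and in syngeneic spleen it was -0.47 ± 0.15 and not called (SE; limma adjusted p = 0.127). All 3 comparisons had ranges that did not overlap. Ovary and allogeneic spleen were near each other in CD8 cells, at a difference of 0.20 ± 0.13 (SE; limma adjusted p = 0.730), and in CD4 cells at 0.38 ± 0.17 (SE; limma adjusted p = 0.290). Markers of macrophages moved with this gap: 8 of 9 listed genes had a named probe, and all 8 were lower in CD8 than in CD4 cells of ovary and of allogeneic spleen, against 5 of 8 in syngeneic spleen. Their summed level was 9.35 to 10.5 in ovarian CD8 arrays, against 56.0 to 128 in ovarian CD4 arrays, and 5.79 to 7.27 in allogeneic splenic CD8 arrays, against 53.6 to 84.7 in allogeneic splenic CD4 arrays. Their part in the result was not tested.

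The other probe of Tgfbr1 gave the same sign in each of these comparisons. It differed by -1.78 ± 0.32 between allogeneic and syngeneic splenic CD8 cells and by -0.38 ± 0.39 in CD4 cells (SE). Between CD8 and CD4 cells it differed by -1.75 ± 0.34 in ovary and by -2.06 ± 0.36 in allogeneic spleen (SE). Averaging the probes moved the allogeneic splenic gap between CD8 and CD4 cells to -1.5.

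Tgfbr2, the type II receptor that binds the ligand first, was the steadiest of the receptor transcripts. Its level lay between 4.45 and 4.66 in ovarian CD8 arrays, against 4.14 to 4.43 in allogeneic splenic CD8 arrays. It was 4.18 and 4.46 in ovarian CD4 arrays, against 4.19 and 4.48 in allogeneic splenic CD4 arrays. The syngeneic groups spanned 4.12 to 4.71 in CD8 and 4.27 to 4.78 in CD4 arrays, so neighbouring groups overlapped throughout the order of means. The ovarian CD8 arrays all lay above the allogeneic splenic CD8 arrays, yet the difference of 0.26 ± 0.18 was not called (SE; limma adjusted p = 0.747). No comparison of Tgfbr2 was called, and the other differences ran from -0.20 to 0.28. Its other probe differed by 0.45 ± 0.26 between ovarian and allogeneic splenic CD8 cells (SE).

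Tgfbr3, the co-receptor betaglycan, had the largest transplant difference of the 10 genes in both subsets. Its level was -2.65, -2.52 and -3.21 in allogeneic splenic CD8 arrays, against 1.31, 1.06 and 0.57 in syngeneic splenic CD8 arrays. It was -0.90 and -1.44 in allogeneic splenic CD4 arrays, against 2.07 and 1.70 in syngeneic splenic CD4 arrays. The groups were far apart in both subsets. The difference was -3.77 ± 0.30 in CD8 (SE, n = 3 each; limma adjusted p = 1.53e-06), a 13.7-fold lower signal, and -3.06 ± 0.37 in CD4 (SE, n = 2 each; limma adjusted p = 0.000277), 8.31-fold lower. Background correction with normexp before quantile normalization made the CD8 difference smaller, at -2.25, and it was still called. The test of whether the CD8 and CD4 changes differed gave -0.72 ± 0.48 (SE; limma adjusted p = 0.338).

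In ovary Tgfbr3 was at the low end of its range. Its level was -3.09, -3.48, -3.31 and -3.11 in ovarian CD8 arrays, which overlapped allogeneic splenic CD8 arrays, and the difference of -0.46 ± 0.28 was not called (SE; limma adjusted p = 0.731). Ovarian CD4 arrays had -2.60 and -3.74, the lower one not well above background, against -0.90 and -1.44 in allogeneic splenic CD4 arrays. The CD4 difference of -2.0 ± 0.37 (SE, n = 2 each; limma adjusted p = 0.0310) was lost without allogeneic splenic CD4 replicate 1 (adjusted p = 0.0988) or without ovarian CD4 replicate 2 (0.132), and was -0.92 after normexp. Whether the ovary minus spleen difference itself differed between CD8 and CD4 cells was not called, at 1.54 ± 0.47 (SE; limma adjusted p = 0.299). Between CD8 and CD4 cells the level differed by -1.62 ± 0.34 in allogeneic spleen (SE; limma adjusted p = 0.00470; -0.73 after normexp), by -0.08 ± 0.32 in ovary (SE; limma adjusted p = 0.894) and by -0.90 ± 0.34 in syngeneic spleen (SE; limma adjusted p = 0.211).

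B-cell markers moved with Tgfbr3. Their summed level was 1.17 to 2.08 in ovarian CD8 arrays and 1.47 to 1.69 in ovarian CD4 arrays, against 2.55 to 4.46 in allogeneic splenic CD8 and 7.93 to 8.39 in allogeneic splenic CD4 arrays. In syngeneic spleen it was 13.6 to 21.7 in CD8 and 30.0 to 63.1 in CD4 arrays. Of the 5 markers, 4 (Cd79a, Cd79b, Fcmr and Pax5) fell after allogeneic transplantation in CD8 cells and 2 (Cd79b and Fcmr) in CD4 cells, and 4 of 5 were well above background on no ovarian CD4 array. Of 9 dendritic cell markers, 5 fell after allogeneic transplantation in CD8 cells (Ccr9, Cd207, Cd209a, Clec9a and Flt3) and 3 in CD4 cells (Cd209a, Clec9a and Flt3). Their summed level was 12.4 to 320 in allogeneic splenic CD8 arrays, against 273 to 420 in syngeneic ones. In CD4 arrays the sum went the other way, at 352 to 551 in allogeneic and 211 to 341 in syngeneic spleen. A marker flagged on all its spots of an array is missing from that array's sum. The B-cell and dendritic marker changes in CD8 cells also stand beside the lower Tgfbr1, Smad7, Ski and Skil signals of allogeneic splenic CD8 cells. Their part in these results was not tested. In sorted bulk cells, fewer cells of a type and less RNA per cell cannot be told apart.

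Of the SMAD genes, Smad7 changed with transplantation, and the activating pair did not pass the test in any comparison with all arrays. Smad7, the inhibitory SMAD that blocks the type I receptor, had levels of 1.37, 0.97 and 0.75 in allogeneic splenic CD8 arrays, against 2.24, 2.74 and 2.37 in syngeneic splenic CD8 arrays. In CD4 cells it had 1.21 and 1.19 in allogeneic spleen, against 1.97 and 2.14 in syngeneic spleen. No array of an allogeneic splenic group reached its syngeneic counterpart. The CD8 difference was -1.42 ± 0.29 (SE, n = 3 each; limma adjusted p = 0.00222), a 2.68-fold lower signal that held without any one array, and the CD4 difference of -0.86 ± 0.36 was not called (SE; limma adjusted p = 0.125).

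In ovary Smad7 was 1.32, 1.35, 2.20 and 1.26 in CD8 arrays and 1.52 and 2.46 in CD4 arrays. The third ovarian CD8 array stood well above the other 3. The ovarian CD8 arrays overlapped the allogeneic splenic ones, and the difference was 0.50 ± 0.27 (SE; limma adjusted p = 0.676) and 0.28 without that array. The ovarian CD4 arrays were above the allogeneic splenic ones, with a difference of 0.79 ± 0.36 that was not called (SE; limma adjusted p = 0.308).

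Smad2 and Smad3, the transducers of the TGF-beta signal, had no called difference in the 9 comparisons with all arrays. Smad2 lay between 0.60 and 0.88 in ovarian CD8 arrays, against 0.72 to 1.08 in allogeneic splenic CD8 arrays, and between 0.65 and 0.93 in syngeneic splenic CD8 arrays. In CD4 cells it was 0.53 and 0.61 in ovary and 0.70 and 0.23 in allogeneic spleen, against 0.79 and 0.75 in syngeneic spleen. Its differences ran from -0.31 to 0.42, and the highest, between CD8 and CD4 cells of allogeneic spleen, had a limma adjusted p of 0.0885. Smad3 lay between 2.72 and 2.80 in ovarian CD8 arrays, against 2.15 to 2.71 in allogeneic splenic CD8 arrays. It was 3.49 and 3.05 in ovarian CD4 arrays, against 3.62 and 2.45 in allogeneic splenic CD4 arrays. The wide gap between the splenic CD4 replicates of Smad3 covers the range of most other groups. Its CD8 minus CD4 difference was negative in ovary (-0.49 ± 0.27), in allogeneic spleen (-0.54 ± 0.28) and in syngeneic spleen (-0.43 ± 0.28; SE in each case), with limma adjusted p of 0.230, 0.167 and 0.593. Single allogeneic splenic CD4 arrays decided some of these values. Without replicate 1 the CD8 minus CD4 difference of Smad2 in allogeneic spleen was 0.65 and called (limma adjusted p = 0.0216). Without replicate 2 that of Smad3 was -1.13 and called (limma adjusted p = 0.00543), and the allogeneic minus syngeneic difference of Smad3 in CD4 cells was 0.83 and called (limma adjusted p = 0.0366).

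The probes of Smad3 did not give the same picture. The dimmer probe, well above background on 14 of 16 arrays, differed by 1.52 ± 0.31 between ovarian and allogeneic splenic CD4 cells and by -1.51 ± 0.26 between ovarian CD8 and CD4 cells (SE). On the chosen probe those differences were 0.23 ± 0.31 and -0.49 ± 0.27 (SE).

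**Figure D2:**
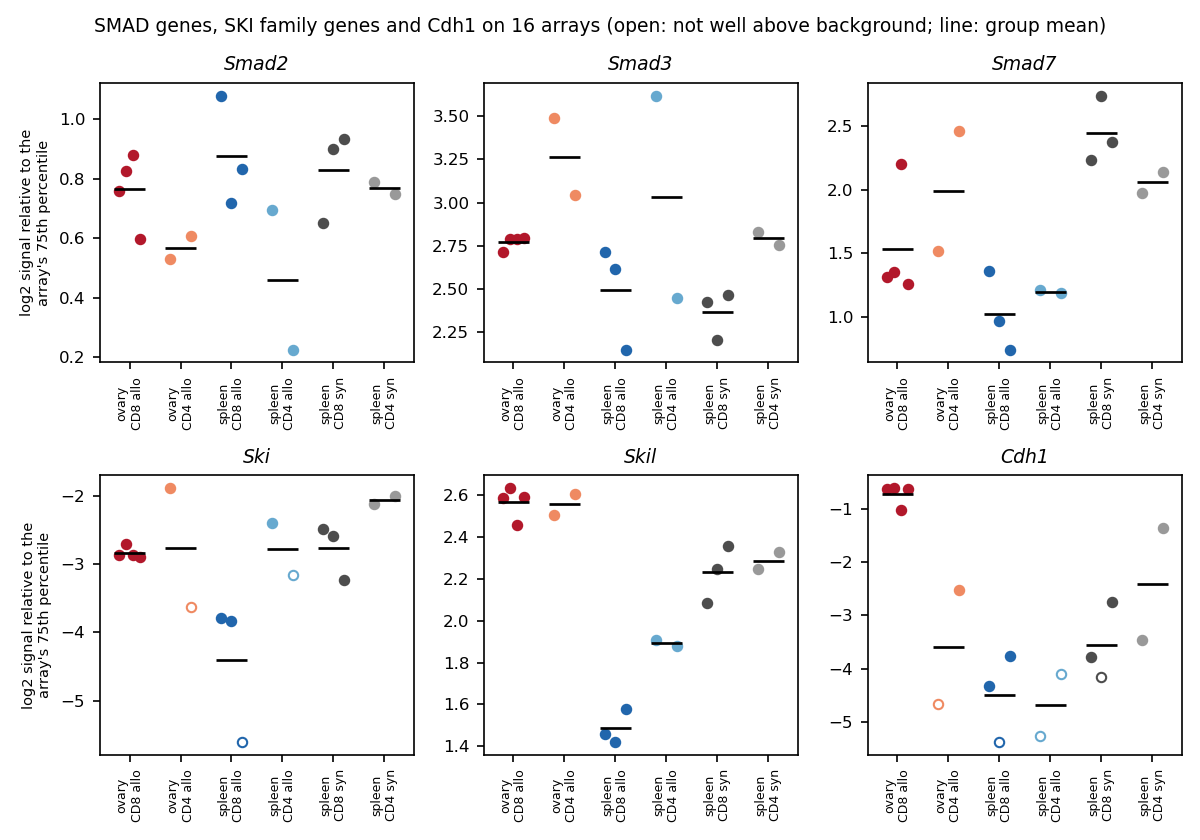
Levels of Smad2, Smad3, Smad7, Ski, Skil and Cdh1 on each of 16 arrays (y axis, log2 signal relative to the array's 75th percentile; each panel has its own scale) in 6 groups (x axis), with open circles for spots not well above background and a line at the group mean. Skil has ovary at the top and allogeneic spleen at the bottom, and Cdh1 is high in the 4 ovarian CD8 arrays, which lie between -1.03 and -0.61.

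Skil, which encodes the SMAD corepressor SnoN, had tight groups. Its level was 2.59, 2.63, 2.46 and 2.59 in ovarian CD8 arrays, against 1.46, 1.42 and 1.58 in allogeneic splenic CD8 arrays. It was 2.51 and 2.61 in ovarian CD4 arrays, against 1.91 and 1.88 in allogeneic splenic CD4 arrays. Every ovarian array lay above every splenic one, syngeneic arrays included. The ovary minus spleen difference was 1.08 ± 0.11 in CD8 and 0.66 ± 0.14 in CD4 cells (SE), given without a test because the gene was chosen for it.

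On the chosen probe, splenic Skil was lower after allogeneic transplantation. Syngeneic splenic CD8 arrays had 2.09, 2.25 and 2.36, so the allogeneic minus syngeneic difference was -0.75 ± 0.11 (SE, n = 3 each). Syngeneic splenic CD4 arrays had 2.25 and 2.33, and the difference was -0.39 ± 0.14 (SE). No test is given, because the allogeneic splenic arrays also enter the difference for which the gene was chosen. In order of group means, ovarian CD8 and CD4 cells did not differ beyond their spread, nor did syngeneic CD4 and CD8 cells, and the remaining neighbours did not overlap.

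The CD8 minus CD4 difference of Skil was 0.01 ± 0.12 in ovary and -0.41 ± 0.13 in allogeneic spleen (SE), without a test for the same reason. In syngeneic spleen it was -0.06 ± 0.13 (SE; limma adjusted p = 0.946). The chosen probe is printed 10 times on each array, with a median standard deviation between spots of 0.0551. The other probe of Skil differed by 0.98 ± 0.25 between ovarian and allogeneic splenic CD8 cells and by 0.86 ± 0.32 in CD4 cells (SE). Between allogeneic and syngeneic spleen it differed by -0.48 ± 0.26 in CD8 cells and by -0.04 ± 0.32 in CD4 cells (SE). The lower CD4 signal after allogeneic transplantation was thus seen on the chosen probe only.

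Ski, the founding member of that corepressor family, was dim and less certain. Its level was -3.79, -3.83 and -5.60 in allogeneic splenic CD8 arrays, the lowest not well above background, against -2.48, -2.59 and -3.24 in syngeneic splenic CD8 arrays. The ranges were apart, at a difference of -1.64 ± 0.50 (SE, n = 3 each; limma adjusted p = 0.0204). The call was lost without syngeneic replicate 1 (adjusted p = 0.0645), without syngeneic replicate 2 (0.0634) or without allogeneic replicate 3 (0.0646), where the difference was -1.04. With normexp the difference was -0.25, with all dim values set to a common floor -0.01, and on slide 2 alone -2.69.

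In ovarian CD8 arrays Ski was -2.86, -2.70, -2.86 and -2.90, all above the allogeneic splenic CD8 arrays, and the difference of 1.58 ± 0.46 was not called (SE; limma adjusted p = 0.237). In ovarian CD4 arrays it was -1.88 and -3.63, against -2.40 and -3.15 in allogeneic splenic CD4 arrays and -2.12 and -2.01 in syngeneic splenic CD4 arrays. The lower value of each allogeneic pair was not well above background. The CD8 minus CD4 difference in allogeneic spleen was -1.63 ± 0.55 (SE; limma adjusted p = 0.0438). That call was lost without allogeneic splenic CD4 replicate 1 (0.198) or replicate 2 (0.0659), or without allogeneic splenic CD8 replicate 3 (0.0992, at -1.04), and the difference was -0.47 with normexp, -0.06 with the common floor and -2.45 on slide 2 alone.

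Cdh1 was highest in ovarian CD8 arrays. Its level there was -0.62, -0.61, -1.03 and -0.63, all well above background, against -4.33, -5.37 and -3.77 in allogeneic splenic CD8 arrays, the middle one not well above background. In ovarian CD4 arrays it was -4.67, not well above background, and -2.52, against -5.26 and -4.11 in allogeneic splenic CD4 arrays, neither well above background. The 4 ovarian CD8 arrays lay above all 12 others. The ovary minus spleen difference was 3.77 ± 0.61 in CD8 cells (SE), given without a test because the gene was chosen for it. In CD4 cells no size is given, since no allogeneic splenic array was well above background. In CD8 cells it was 1.40 with normexp and 1.80 with the common floor.

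Within ovary, Cdh1 was at a higher level in all CD8 arrays than in both CD4 arrays. The difference was 2.88 ± 0.69 (SE, n = 4 and 2), given without a test because the ovarian CD8 arrays also chose the gene. Without ovarian CD4 replicate 1, the array not well above background, it was 1.80. It was 1.24 with normexp, 1.80 with the common floor and 1.70 on slide 2 alone.

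In spleen the Cdh1 values scattered. Syngeneic CD8 arrays had -3.78, -4.15 and -2.75, and syngeneic CD4 arrays had -3.45 and -1.37. The allogeneic minus syngeneic difference was -0.93 ± 0.65 in CD8 cells (SE), without a test. In CD4 cells no allogeneic array was well above background, and the mean signal was at least 1.77-fold lower than the syngeneic mean, without a test. The bound sets the syngeneic mean against the lowest signal well above background on each allogeneic array, or the probe's own where that was higher. It rests on 2 syngeneic arrays that lay far apart. The lower of them, at -3.45, was under the lowest signal well above background on allogeneic replicate 2 (-2.52). The Cdh1 probe is printed 10 times on each array, and the standard deviation between its spots had a median of 0.259 and reached 0.734 on the dimmest values.

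Markers of epithelium, which expresses E-cadherin, were low in all groups. Of 10 listed genes, 5 (Cldn3, Krt7, Krt8, Msln and Upk3b) were well above background on no ovarian CD8 array, and 4 on all of them. The summed level was 1.57 to 1.83 in ovarian CD8 and 1.67 to 2.47 in ovarian CD4 arrays, against 1.06 to 1.27 in allogeneic splenic CD8 and 1.38 to 1.43 in allogeneic splenic CD4 arrays. It was 0.655 to 0.966 in syngeneic splenic CD8 and 0.590 to 0.985 in syngeneic splenic CD4 arrays. None of the 4 epithelial genes measured was called between ovary and spleen in either subset. Of 9 granulosa markers, 5 were measured and Wt1 was higher in ovarian than in allogeneic splenic CD8 cells, with sums over all 9 of 19.4 to 23.1 against 19.9 to 21.3. Of 7 theca and luteal markers, 6 were measured and Cyp11a1 and Hsd3b1 were higher, with sums of 10.6 to 19.6 against 1.09 to 23.7. Of 4 stromal markers measured Mgp was higher, with sums over all 7 listed of 0.517 to 1.2 against 0.475 to 0.592, and of 8 macrophage markers Apoe was higher. The part of these markers in the Cdh1 result was not tested.

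Counted over the 10 genes, 2 rose and none fell in ovary against allogeneic spleen in CD8 cells (Skil and Cdh1). Over all features 0.539% were called there, and the median difference was 0.27 over the 10 genes and 0.03 over all features. In CD4 cells 1 gene fell (Tgfbr3) and none rose, with 0.907% of features called and medians of 0.31 and -0.04. Because Skil and Cdh1 were chosen for these differences, nothing is read from those counts, nor from these genes in the counts that share arrays with them.

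After allogeneic against syngeneic transplantation, 5 of the 10 genes fell in splenic CD8 cells (Tgfbr3, Tgfbr1, Smad7, Ski and Skil, the last of them chosen on the same allogeneic arrays) and none rose. Over all features 38.4% were called, 19.6% of them lower and 18.8% higher as shares of all features, so calls in this comparison were common. The median difference was -0.84 over the 10 genes and -0.16 over all features. In CD4 cells 2 fell (Tgfbr3 and Tgfbr1) and none rose, with 16.1% of features called, 5.70% lower and 10.4% higher, and medians of -0.48 and 0.04. No difference between the CD8 and CD4 changes was called in the 10 genes, against 11.9% of features (5.27% higher and 6.68% lower), and 1 of the 10 had an unadjusted p under 0.05.

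Between CD8 and CD4 cells, Cdh1 was higher and Tgfbr1 lower in ovary, where 17.5% of features were called, 8.47% higher and 9.04% lower. In allogeneic spleen 4 genes were lower in CD8 cells (Tgfbr1, Tgfbr3, Skil and Ski) and none higher, with 29.4% of features called. In syngeneic spleen no gene was called by limma, with 4.14% of features called, and 2 genes had an unadjusted p under 0.05, against 3251 of 22830 features. For the difference of the ovary minus spleen change between subsets, limma called 0 of 22830 features, and 3 of the 10 genes and 2539 features had an unadjusted p under 0.05.

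Ranges that did not overlap were frequent in groups this small, and are read against their share of all features. Between ovary and allogeneic spleen they were apart for 5 of the 10 genes in CD8 cells, against 12.6% of features, and for 5 in CD4 cells, against 33.7%. Skil and Cdh1 are among the 5 in CD8 cells, and Skil is among the 5 in CD4 cells. Both were chosen for this difference, so nothing is read from these counts. Nor is anything read from these genes in the other counts that share arrays with their choice. Between allogeneic and syngeneic spleen they were apart for 5 genes in CD8 cells, against 53.4% of features, and for 7 in CD4 cells, against 51.1%. Between CD8 and CD4 cells they were apart for 4 genes in ovary (47.9% of features), 5 in allogeneic spleen (49.2%) and 5 in syngeneic spleen (34.3%).

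**Figure D3:**
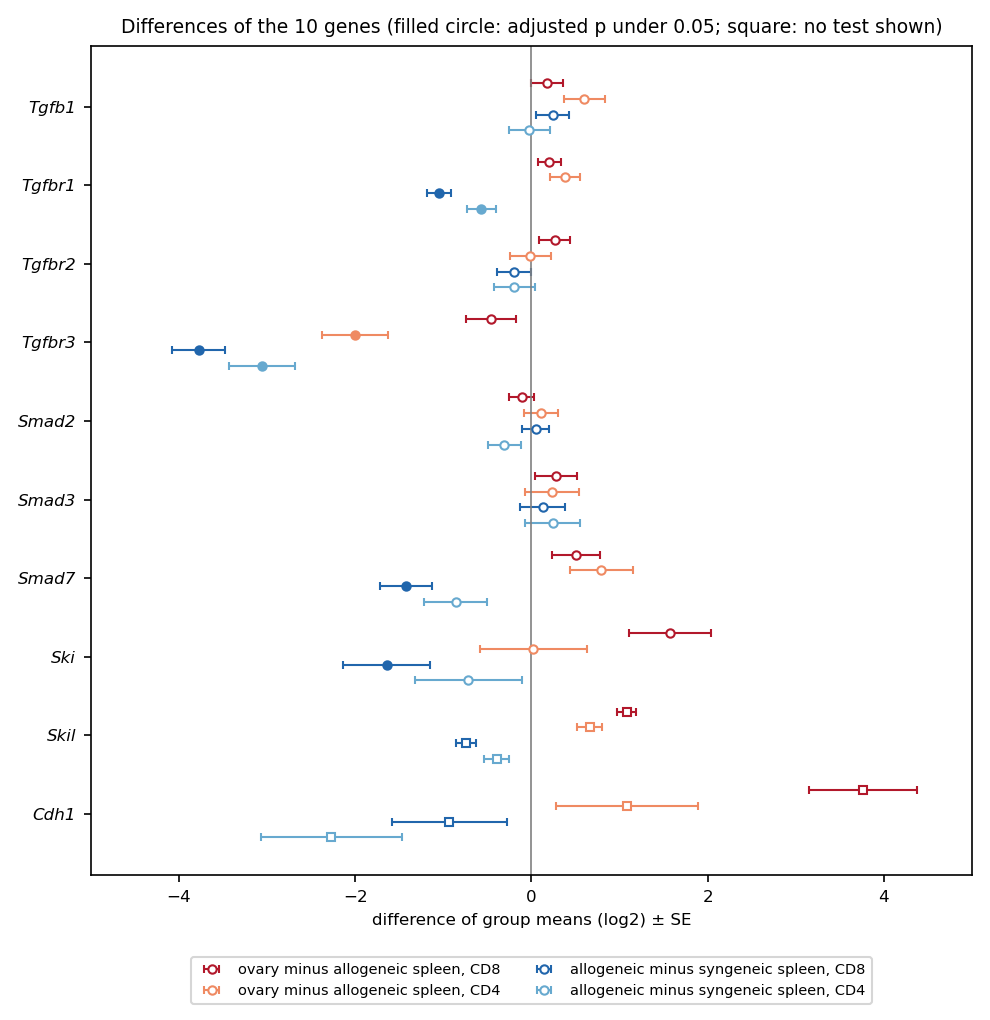
Difference of group means (x axis, log2, with bars of 1 SE) for each of the 10 genes (rows) in 4 comparisons (colours), with filled circles where the limma adjusted p was under 0.05 and squares where no test is given. Values of Cdh1 in CD4 cells rest on allogeneic splenic arrays not well above background. Tgfbr3 lies farthest to the left, at -3.77 and -3.06 for allogeneic minus syngeneic CD8 and CD4 cells, and Cdh1 farthest to the right, at 3.77 for ovary minus allogeneic spleen in CD8 cells.

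Genes that shared the pattern of a member over the 16 arrays were ranked by Pearson r among 13519 other named genes, as a description, since arrays of a group share their cells and processing. Skil was closest to Cpe (r = 0.84), Fabp3 (0.83) and Fnbp1l (0.81). Cdh1 was closest to Krt87 (0.90), followed by Itga1 (0.78), a collagen-binding integrin chain found on tissue-resident T cells, and Dusp6 (0.76), a phosphatase of the ERK pathway. Tgfbr3 had the closest companions, Lmo4 (0.98), Dntt (0.98) and Dbp (0.98). Tgfbr1 was closest to Lta (0.97), which encodes lymphotoxin alpha, and Smad7 to Ankrd61 (0.92), Cdc42bpb (0.92) and Kdm6b (0.89). The closest genes were Sparc (0.92) for Tgfb1, Tfap2a (0.84) for Ski, Clpx (0.90) for Smad2, Hemk1 (0.89) for Smad3 and Cep350 (0.81) for Tgfbr2. Among the members themselves the highest r were 0.77 for Smad3 with Tgfb1, 0.72 for Skil with Cdh1 and 0.67 for Tgfbr1 with Tgfbr3. Skil and Cdh1 were both chosen for differing between ovary and spleen on these arrays, so nothing is read from their r.

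The rest of the pathway was described through 7 lists of 108 genes, 1 of them in a pair of lists, drawn up by role. Between ovary and allogeneic spleen, none of the measured genes of these lists was called in CD8 cells. In CD4 cells Dcn was the only one called. Dcn encodes decorin, a matrix proteoglycan that binds TGF-beta, and was lower in ovary by -2.57 ± 0.50 (SE; limma adjusted p = 0.0380), a call lost without either ovarian CD4 array or without allogeneic splenic CD4 replicate 1 (adjusted p up to 0.119).

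Ligands and proteins of ligand storage and activation moved in both directions after allogeneic transplantation. Of 19 measured of 28 listed, 7 rose and 3 fell in splenic CD8 cells (18.8% and 19.6% of all features), with a median of 0.40 against -0.16 over all features, and 4 rose and 1 fell in CD4 cells (10.4% and 5.70% of all features). Tgfb3, another TGF-beta ligand, had levels of -1.66, -1.62 and -1.56 in allogeneic splenic CD8 arrays, against -3.27, -3.19 and -2.87 in syngeneic ones, a rise of 1.5 ± 0.15 (SE; limma adjusted p = 7.83e-06). Its rise in CD4 cells was 1.57 ± 0.18 (SE; limma adjusted p = 0.000200). Bmp7, a bone morphogenetic protein, rose by 3.55 ± 0.25 in CD8 cells (SE; limma adjusted p = 4.50e-07) and differed by 0.29 ± 0.30 in CD4 cells (SE; limma adjusted p = 0.565). Dcn was 0.16 and -0.18 in allogeneic splenic CD4 arrays, against -4.25 and -5.17 in syngeneic ones, the last not well above background. It rose by 4.70 ± 0.50 (SE; limma adjusted p = 0.000120), and was well above background on no allogeneic splenic CD8 array. Lrrc32, which encodes GARP, the tether of latent TGF-beta on regulatory T cells, was lower in CD8 than in CD4 cells in ovary (-5.36 ± 0.42), allogeneic spleen (-4.95 ± 0.45) and syngeneic spleen (-5.70 ± 0.45; SE; limma adjusted p at most 2.75e-05), and was not called with transplantation.

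Among other receptors of the family, those called in CD8 cells were lower. Of 8 measured of 12 listed, 4 fell after allogeneic transplantation and none rose, with a median of -0.74, against 19.6% of all features lower, and 1 of 8 fell in CD4 cells, against 5.70%. Eng, which encodes the co-receptor endoglin, had levels of -3.30, -3.40 and -2.60 in allogeneic splenic CD8 arrays, against -0.01, -0.26 and -0.59 in syngeneic ones, a fall to a signal 7.01-fold lower (-2.81 ± 0.26, SE; limma adjusted p = 4.81e-06). In CD4 cells it differed by 0.40 ± 0.32 (SE; limma adjusted p = 0.435). The activin type II receptors Acvr2b (-1.60 ± 0.27) and Acvr2a (-1.08 ± 0.18) were also lower in CD8 cells (SE; limma adjusted p = 0.000629 and 0.000572). All Acvr2a values lay under the common floor, where its difference was 0 and not called.

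Partners of the SMADs changed in both directions. Of 10 measured of 13 listed, 2 rose and 3 fell in CD8 cells after allogeneic transplantation, with a median of -0.46, against 38.4% of all features called. In CD4 cells 1 fell and none rose, against 16.1% of all features called. Smad4, the shared partner of SMAD2 and SMAD3, was 3.46, 3.38 and 3.22 in allogeneic splenic CD8 arrays, against 4.10, 4.25 and 3.94 in syngeneic ones, a difference of -0.74 ± 0.14 (SE; limma adjusted p = 0.00142). The mean of its probes gave 0.01 instead (adjusted p = 0.987), so its probes disagree. Trim33, a ubiquitin ligase that acts on SMAD4, differed by -0.73 ± 0.18 (SE; limma adjusted p = 0.00769).

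Negative regulators of the pathway were all measured, and 8 of 18 fell while 2 rose in splenic CD8 cells, against 19.6% and 18.8% of all features, with a median of -0.69. In CD4 cells 3 fell and none rose, against 5.70% and 10.4% of all features, with a median of -0.40 against 0.04 over all features. Nedd4l, a ubiquitin ligase of phosphorylated SMAD2 and SMAD3, was -1.64, -1.85 and -2.05 in allogeneic splenic CD8 arrays, against 1.89, 1.76 and 1.44 in syngeneic ones. The difference was -3.55 ± 0.25 in CD8 (SE; limma adjusted p = 4.86e-07) and -2.25 ± 0.30 in CD4 cells (SE; limma adjusted p = 0.000536). Wwp1, a related ligase, fell by 1.5 on the log2 scale in CD8 cells (limma adjusted p = 2.28e-06), and its CD4 call (-0.50 ± 0.16, SE; limma adjusted p = 0.0473) was lost on leaving out any one of the 4 arrays. Pmepa1, a TGF-beta target that sequesters SMADs, was -6.29, -2.84 and -3.96 in allogeneic splenic CD8 arrays, only the second well above background, against 0.80, 1.12 and -0.02 in syngeneic ones. Its difference of -5.0 ± 0.69 (SE; limma adjusted p = 0.000124) rests on those dim values. Cblb, a ubiquitin ligase that limits T-cell activation, rose by 1.52 ± 0.18 (SE; limma adjusted p = 3.12e-05).

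Genes known as targets of TGF-beta or SMADs were called in both directions, more often upward. Of 15 measured of 17 listed, 5 rose and 1 fell in CD8 cells after allogeneic transplantation, and 4 rose and 2 fell in CD4 cells, with medians of -0.32 and 0.64. Over all features 38.4% were called in CD8 cells, 18.8% higher and 19.6% lower. The CD8 count of both directions together is near that background. In CD4 cells 16.1% of all features were called, 10.4% higher and 5.70% lower, and the count of targets lay above that share. The list was drawn up with earlier results of these data known, so no more is read from these counts. Cdkn2b, an inhibitor of the cell cycle, rose by 3.47 ± 0.38 in CD8 and by 4.14 ± 0.47 in CD4 cells (SE; limma adjusted p = 2.03e-05 and 0.000186). Klf10, a zinc finger protein induced early by TGF-beta, was 3.16, 2.90 and 3.40 in allogeneic splenic CD8 arrays, against 0.68, 1.07 and 1.12 in syngeneic ones (2.20 ± 0.29, SE; limma adjusted p = 9.75e-05). Foxp3, the regulator of regulatory T cells, rose by 2.20 ± 0.36 in CD8 cells (SE; limma adjusted p = 0.000488), where its level was at most 0.35 in allogeneic arrays, against 2.56 or more in the allogeneic CD4 arrays of spleen and ovary. Runx3, a transcription factor of the CD8 lineage, was 2.52, 2.46 and 2.97 in allogeneic splenic CD8 arrays, against 1.44, 1.85 and 1.5 in syngeneic ones. Its rise was 1.05 ± 0.16 in CD8 and 0.97 ± 0.19 in CD4 cells (SE; limma adjusted p = 0.000222 and 0.00534), and both held without any one array.

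Partners and receptors of E-cadherin, and factors known to regulate Cdh1, included some of the largest changes. Over all features 38.4% were called in allogeneic against syngeneic CD8 cells (18.8% higher and 19.6% lower), and 16.1% in CD4 cells. Calls were thus common, and nothing is read from the counts of these 2 lists. Klrg1, an inhibitory receptor that binds E-cadherin, was 3.80, 2.49 and 2.25 in allogeneic splenic CD8 arrays, against -1.64, -2.43 and -3.88 in syngeneic ones, the last not well above background. Its rise was 5.49 ± 0.51 (SE; limma adjusted p = 4.92e-06). Of 7 measured genes of that list, Klrg1 and Ctnna1, which encodes alpha-catenin (0.99 ± 0.26, SE; limma adjusted p = 0.0101), rose in CD8 cells, and none was called in CD4 cells. Zeb2, a repressor of Cdh1 that also acts in effector CD8 cells, rose by 3.06 ± 0.46 (SE; limma adjusted p = 0.000262), while Zeb1, a repressor of the same family, fell to 0.95, 0.75 and 0.59 in allogeneic splenic CD8 arrays, against 1.83, 1.85 and 1.59 in syngeneic ones (-1.0 ± 0.16, SE; limma adjusted p = 0.000424). In ovarian CD8 arrays, where Cdh1 was high, Zeb2 was 0.39, 0.35, 1.07 and 0.35 and Zeb1 was 0.81, 0.79, 0.71 and 0.91, and neither was called against allogeneic spleen. Of 6 measured factors, 2 rose and 1 fell in CD8 cells, the other riser being Grhl2, an epithelial activator of Cdh1 (1.59 ± 0.52, SE; limma adjusted p = 0.0291), whose call was lost without either of allogeneic replicates 1 and 2 or syngeneic replicates 1 and 2 (adjusted p up to 0.106).

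Dim genes of these lists gave smaller differences after normexp and quantile normalization, with the same sign and still called. In CD8 cells those were -1.34 for Eng, -1.04 for Acvr2b, 2.10 for Bmp7, 0.66 for Tgfb3 and -2.33 for Pmepa1. They were 1.95 for Cdkn2b, 1.03 for Foxp3, 3.39 for Klrg1, 1.69 for Zeb2 and -0.87 for Wwp1, and in CD4 cells 1.88 for Dcn and 2.04 for Cdkn2b.

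**Figure D4:**
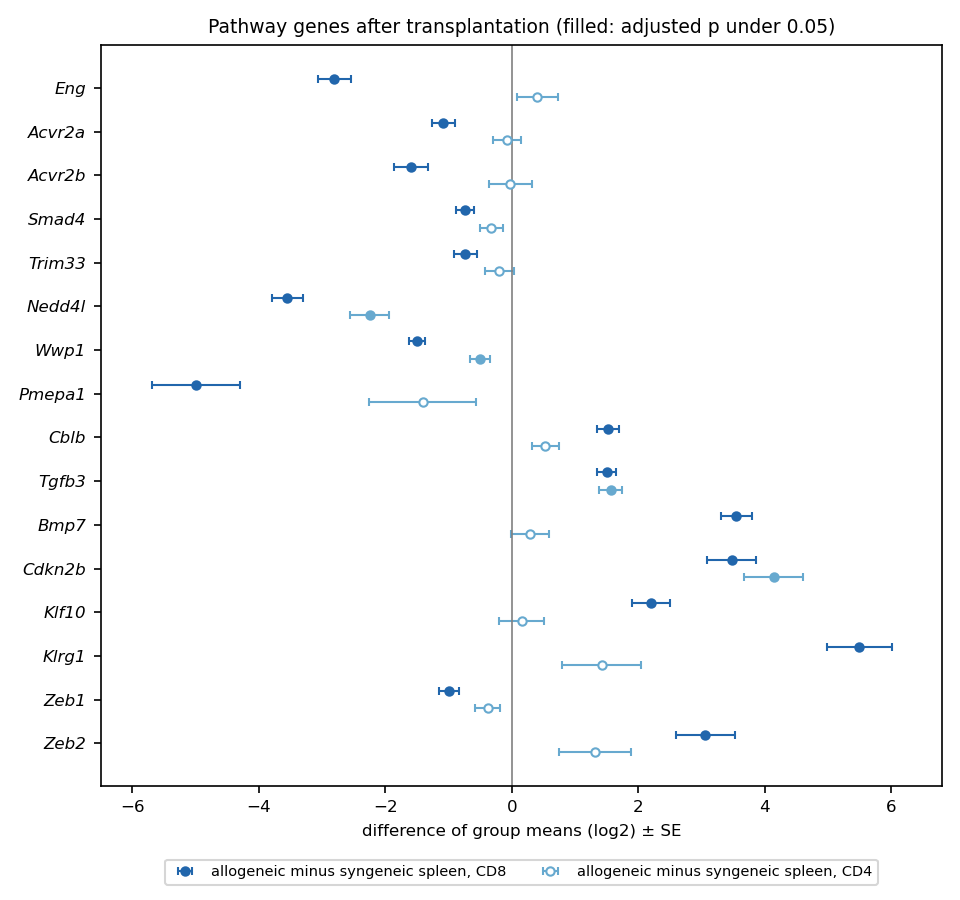
Difference between allogeneic and syngeneic splenic cells (x axis, log2, with bars of 1 SE) for 16 genes of the pathway lists (rows) in CD8 (dark) and CD4 cells (light), with filled circles where the limma adjusted p was under 0.05. The 16 are part of the 28 named genes, which were picked by smallest p. Among those drawn, receptors and negative regulators lie mostly left of 0 in CD8 cells. The named receptor Acvr1 is not drawn, with mean levels of -0.89 in allogeneic and -0.96 in syngeneic splenic CD8 arrays. Klrg1 lies farthest right at 5.49, and Nedd4l, Wwp1, Tgfb3 and Cdkn2b were called in both subsets.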

How the data were processed

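Total RNA of sorted donor T cells was amplified, labelled with Cy3 and hybridised to 1-colour Agilent arrays, 1 sample per array, per the labels' protocols. The deposited tables give the intensity of each spot after background subtraction and spatial detrending. Agilent Feature Extraction 11.5.1.1 made them, per the file headers. The deposited series matrix holds log2 values, which the data show to be the same signals minus each array's 75th percentile and each probe's median. For that step no software was given in the sources used here.

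Log2 processed signals were shifted by each array's 75th percentile over 55681 probes. Accessions named 27656 probes (20972 genes). A feature was kept where a group had it well above background on all its arrays, which left 22830, 1 probe per gene by highest mean. limma 3.58.1 in R 4.3.3 fitted 1 mean per group over all 16 arrays (10 residual and 2.16 prior degrees of freedom), with Benjamini-Hochberg adjustment, and was tested on simulated data. For each member the 3 genes of highest Pearson r were named, and for each pathway list the 4 genes with the smallest p in any of the 7 comparisons of 2 groups. A few listed genes are not reported here. The 10 genes and all lists were chosen with earlier results of these data known. The arrays lie on 2 slides, every group on both, with 1 scan date. Deviations from group means correlated at a median r of 0.20 on the same slide and -0.20 across slides. Each group of 2 arrays has 1 on each slide, so its deviations mirror each other and the negative value largely follows from centring. Of 33 same-numbered pairs, 20 had r above 0.1. Whether replicate numbers pair samples cannot be told from this. The numbers are tied up with the slides, and centring pushes pairs across slides towards a negative r. Alternatives covered normalization, filters, probe choice, slide, replicate block, array weights, a common signal floor, and leaving out each array.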

Additional observations from a re-analysis of the deposited data

Results flagged for a closer look

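Among the 4 ovarian CD8 arrays, the gap test of Dixon marked 1 array as far from the other 3 in 7 of 38 genes examined, where chance marks about 1 in 20 groups. The far array was replicate 3 in 6 of these 7 genes, all but Smad3, so the 7 are not independent of each other. Smad7 had its highest array at 2.20, Klrg1 at 2.95 and Zeb2 at 1.07. The lowest array stood at 2.72 for Smad3, at -1.03 for Cdh1, at -3.53 for Ctnnd1 and at -1.78 for Pmepa1.

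By limma's interaction term, the allogeneic minus syngeneic change differed between CD8 and CD4 cells in 10 of 28 named genes of the pathway lists. None of the 10 members was called, and over all features 11.9% were. The 28 were picked by the smallest p in comparisons of 2 groups, among them those that form this term. The shares are therefore not compared. Of the 10 named genes called, Bmp7 (3.25, adjusted p = 0.000528), Klrg1 (4.07, 0.00882), Klf10 (2.05, 0.0165) and Cblb (0.99, 0.0402) changed more upward in CD8 cells. Dcn (-5.10, 0.000762), Eng (-3.21, 0.000784), Acvr2b (-1.57, 0.0356), Esrp1 (-1.51, 0.0244), Wwp1 (-1.0, 0.00932) and Acvr2a (-1.0, 0.0431) changed more downward. The terms of Acvr2a and Acvr2b were each lost in 7 of 10 fits that left out 1 array, with adjusted p up to 0.152 and 0.156, that of Cblb in 6 of 10 (up to 0.135), that of Esrp1 in 3 of 10 (up to 0.105) and that of Klf10 without syngeneic splenic CD4 replicate 2 (0.0584).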

How the results depend on the processing

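Of 90 differences of the 10 genes, 16 were called, and their 336 values under other settings all kept their sign, 264 of them still called. The 16 include calls of Skil and Cdh1 in comparisons that share arrays with their choice. No test is given for those differences, so their calls here and below only describe the settings. Counts of called genes moved as follows. For ovary minus spleen in CD8 cells the 2 calls became 0 on slide 2 alone, 1 with the filter on all arrays, on slide 1 alone or with a replicate block, and 4 with array weights, with or without the slide. In CD4 cells the 1 call became 2 with normexp, series matrix values, slide as a block, a trended robust prior or a common floor, and 0 without the dim filter, on slide 2 alone, with array weights, with or without the slide, or with only the groups compared. For allogeneic minus syngeneic CD8 cells the 5 calls became 3 with the filter on all arrays and 2 on slide 2 alone. In CD4 cells the 2 calls became 4 with normexp or slide as a block, 1 without the dim filter, with the filter on all arrays, probe means, a replicate block or array weights, with or without the slide, and 0 on slide 2 alone or with only the groups compared. Between subsets the 2 calls in ovary became 1 with the filter on all arrays, 4 on slide 1 alone and 0 on slide 2 alone. The 4 calls in allogeneic spleen became 2 without the dim filter, with the filter on all arrays or with slide and array weights, 1 with array weights, and 0 on slide 2 alone or with only the groups compared. The 0 calls in syngeneic spleen became 2 with normexp, the common floor or slide with array weights. For the interactions, 0 became 2 with the common floor (tissue) and 1 on slide 1 alone (transplant). Leaving out single arrays gave 1 to 2, 0 to 2, 4 to 5, 1 to 3, 1 to 2 and 3 to 3 calls in the order above, and 0 to 0 for syngeneic spleen and both interactions. The filter on all arrays tests 7 of the 10 genes. The cause of the other changes was not tested. The common floor, chosen after seeing the data, the omission of the 2 dimmest arrays and the combined slide and array weights were added later. The replicate block ended 3 calls: Cdh1 between ovary and spleen in CD8 cells, Ski between subsets in allogeneic spleen and Tgfbr1 between allogeneic and syngeneic CD4 cells, and no other. The probe mean turned the Smad4 change in CD8 cells to 0.0083 (adjusted p = 0.987). Normexp moved the median of all features in allogeneic minus syngeneic CD8 cells from -0.16 to -0.04, and no dim filter moved it to -0.36. Over all features, calls between ovary and spleen in CD8 cells numbered 123, against 0 on slide 2 alone and 3600 with array weights (49 without ovarian CD8 replicate 2, 262 without replicate 3), and in CD4 cells 207, against 0 with array weights and 2075 on slide 1 alone (1887 without allogeneic splenic CD4 replicate 2). For allogeneic minus syngeneic cells they numbered 8773 in CD8 cells, against 1901 on slide 2 alone and 13709 with slide and array weights, and 3678 in CD4 cells, against 0 on slide 2 alone, 7 with only the groups compared and 6308 on slide 1 alone (1384 without syngeneic CD4 replicate 1). Between subsets they numbered 3996 in ovary (27 to 6363), 6720 in allogeneic spleen (23 to 8853) and 946 in syngeneic spleen (0 to 3606). The interactions gave 0 for tissue (0 to 1541) and 2728 for transplant (0 to 4230). Without the dim filter the calls between subsets in allogeneic spleen were 2795 higher and 5339 lower, against 3462 and 3258. Groups of 2 arrays and signals near background limit Cdh1, Ski and Tgfbr3 most.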
